A study of Mus musculus with 45 samples.

Results

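The serpin family was followed through embryoid body formation in mouse embryonic stem cells (ESCs). A gene was counted as a member when its annotated symbol began with Serpin, a letter from a to i and a number, and the probe set with the highest mean over the 45 arrays stood for it. The rule found 40 members among 18193 genes. In the GRCm38.p6 annotation 13 of them lie on chromosome 12, 11 on chromosome 13, 8 on chromosome 1 and 8 elsewhere. The family label holds for all 40, since membership is the annotated name, but Serpina4-ps1 is annotated as a transcribed pseudogene. Of the 40, 24 had at least 1 group mean above the highest array median of 5.18 (log2 signal) and 16 never did.

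The ESCs were male cells of strain 129. The groups were ESCs labelled Strip2 silenced (KD), ESCs with a scrambled control (SCR) and wild type ESCs (WT), each undifferentiated and as hanging-drop embryoid bodies (EBs) after 4, 8, 12 and 16 days. Each of the 15 groups had 3 Affymetrix Mouse 430 2.0 arrays. Neither the silencing vector nor the number of clones behind the KD and SCR lines is given in the sources used here, nor is it said whether the 3 arrays came from separate cultures, so a p-value here reflects the spread among these arrays, which may be technical.

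Serpins are proteins that mostly inhibit serine proteases: the protease cuts an exposed reactive-centre loop, and the loop then inserts into the serpin body and traps the enzyme. The liver and the yolk sac endoderm secrete many of them into plasma, where they restrain clotting, fibrinolysis, complement and neutrophil enzymes. Clade B members stay largely inside the cell, and a few members, such as the hormone carriers and the collagen chaperone HSP47, inhibit no protease.

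The array medians ran from 5.02 to 5.18 and the correlations between replicates from 0.9888 to 0.9961. The Strip2 probe set was dim, with group means between 2.57 and 4.85, and at no stage was it lower in the KD-labelled arrays than in WT. Against SCR it was lower at day 12 (-0.92, SE 0.19) and day 16 (-1.56, SE 0.19), stages at which SCR itself exceeded WT by 1.55 and 1.97 on the log2 scale. The arrays are therefore called KD-labelled here, and every direction below rests on that label. The 4 pluripotency markers Pou5f1, Nanog, Zfp42 and Sox2 averaged 11.54 to 11.61 in the day 16 KD-labelled arrays, against 5.34 to 6.81 in SCR and 7 to 7.84 in WT.

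Between the KD-labelled line and either control, more serpins were called late in culture than early, as was true of all genes. Calls are adjusted p under 0.05 in limma, with Benjamini-Hochberg adjustment over all genes. Between KD-labelled and SCR cells 3 members (7.5%) were called in ESCs, where 23.6% of all genes were. At day 4, 7 members (17.5%) were called, where 42.4% of all genes were. The count was 14 at day 8 (35%, all genes 52.8%), 22 at day 12 (55%, all genes 55.6%) and 29 at day 16 (72.5%, all genes 66.6%). Of the 29, 19 were lower in the KD-labelled EBs and 10 higher, while 26.8% of all genes were lower and 39.8% higher. Without SCR array 3 the ESC count was 1.

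Against WT 5 members were called in ESCs (12.5%, all genes 18.4%) and 7 at day 4 (17.5%, all genes 39.1%). The count was 20 at day 8 (50%, all genes 49.9%), 22 at day 12 (55%, all genes 50.7%) and 31 at day 16 (77.5%, all genes 60.8%). Of those 31, 25 were lower and 6 higher in the KD-labelled EBs, against 26.1% lower and 34.6% higher over all genes. The median difference of the members at day 16 was -0.27 against SCR and -0.95 against WT, whereas the median over all genes was 0.17 and 0.13. The KD-labelled arrays enter both comparisons. Small rises at day 16 are to be read beside the shift of all genes. Serpina1f, Serpina3a, Serpina3i, Serpina4-ps1 and Serpina5 were 0.27 to 0.45 higher than SCR, against that shift of 0.17. None of these genes had a group mean above the highest array median. The part of the shift in these rises was not tested. The split against SCR was 7 higher and 21 lower after cyclic loess and 12 higher and 18 lower after centring each array on its median. Against WT it was 3 higher and 25 lower after cyclic loess and 6 higher and 24 lower after centring.

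**Figure D1:**
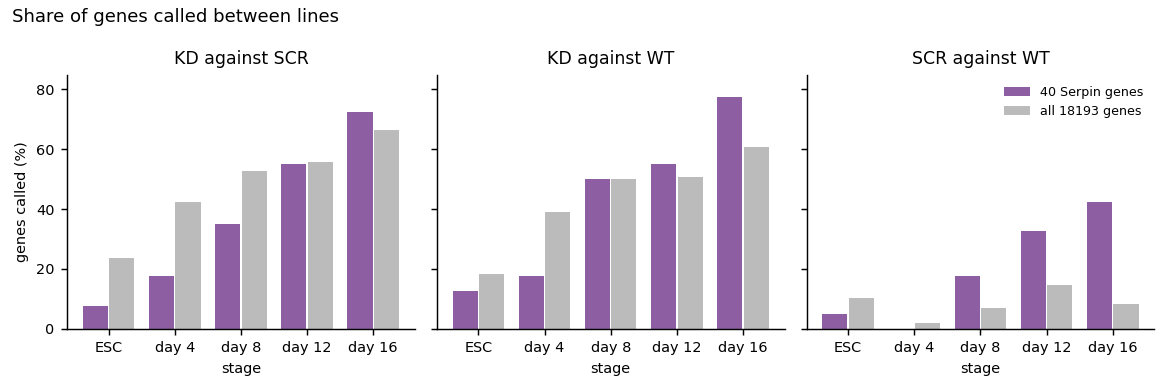
Share of the 40 Serpin genes (purple) and of all 18193 genes (grey) called at adjusted p under 0.05 in limma, in percent, at each stage for 3 pairs of lines. At day 16 the members' share is above that of all genes in all 3 pairs, and in ESCs and at day 4 it is below it in all 3.

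SCR and WT differed in few members at first: 2 in ESCs (all genes 10.2%), 0 at day 4 (1.93%) and 7 at day 8 (6.99%). The ESC count was 1 without the first SCR array. At day 12, 13 members were called (14.7%) and at day 16, 17 (8.11%). The day 16 count was 8 without the third SCR array of day 16 and 11 without the first or the third WT array of that day.

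**Figure D2:**
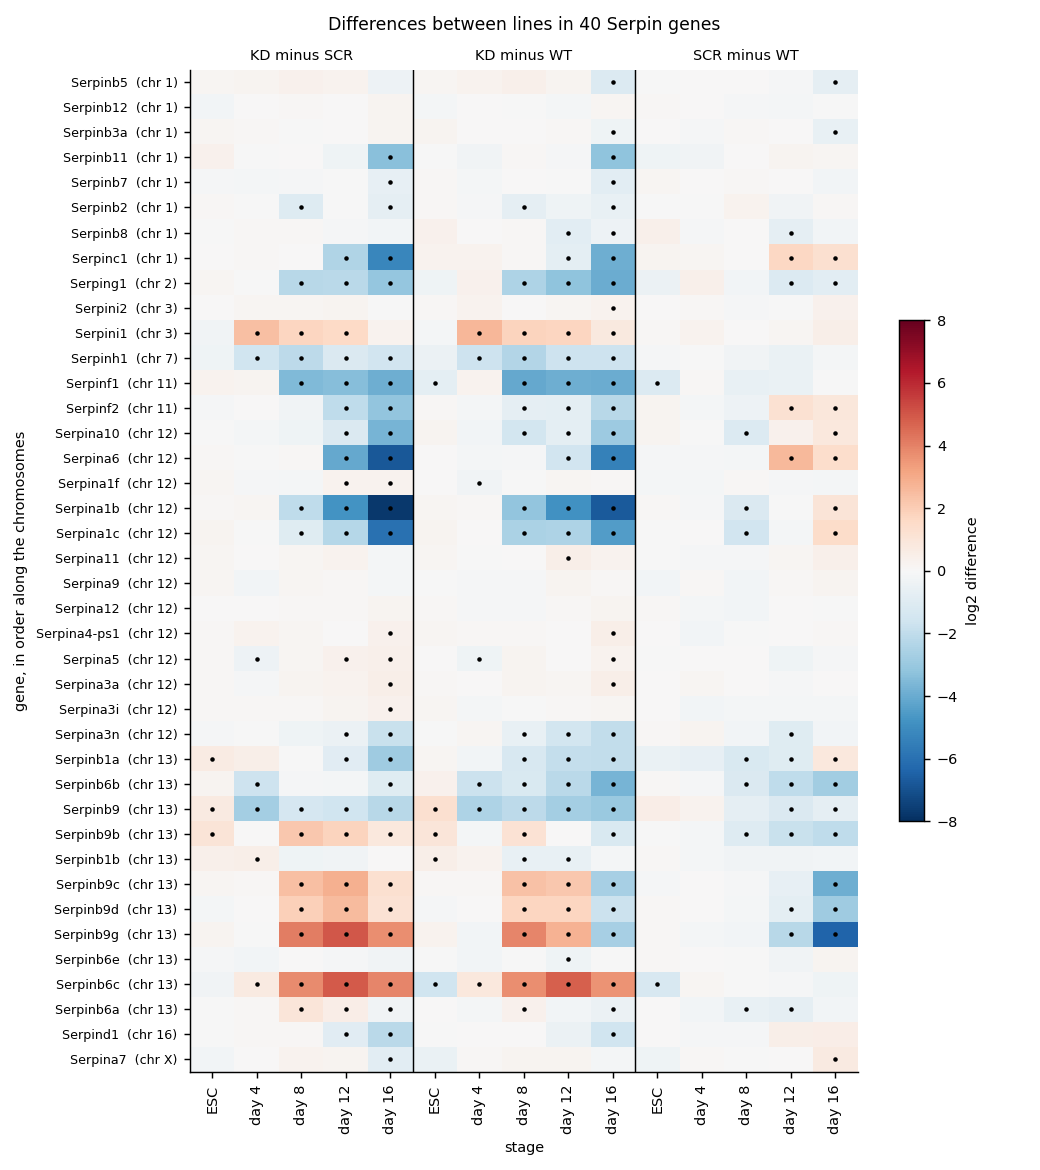
Log2 differences of the 40 Serpin genes between KD-labelled and SCR, KD-labelled and WT, and SCR and WT cells at 5 stages, with genes in chromosome order and a dot at adjusted p under 0.05. Blue blocks mark Serpinc1, Serpina1b, Serpina1c and Serpina6 late in the KD-labelled EBs, and red blocks mark Serpinb6c and Serpinb9g on chromosome 13.

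The secreted plasma serpins showed the largest gap. Serpina1b and Serpina1c, copies of the mouse gene for alpha-1 antitrypsin, the plasma inhibitor of neutrophil elastase, rose in SCR and WT EBs from day 8 and did not pass the test at any day against ESCs in the KD-labelled line. Their promoters are shown because these neighbours on chromosome 12 moved together. Both windows are RefSeq sequence of build GRCm38.p6, minus strand, written 5′ to 3′ from 250 bases before to 50 after the gene start. They lie at chr12:103738140-103738439 for Serpina1b and chr12:103904901-103905200 for Serpina1c. Capitals mark TGTTTGC, letters of a forkhead site, and then GTTAAT, a half-site of the liver-enriched factor HNF1.
Serpina1b: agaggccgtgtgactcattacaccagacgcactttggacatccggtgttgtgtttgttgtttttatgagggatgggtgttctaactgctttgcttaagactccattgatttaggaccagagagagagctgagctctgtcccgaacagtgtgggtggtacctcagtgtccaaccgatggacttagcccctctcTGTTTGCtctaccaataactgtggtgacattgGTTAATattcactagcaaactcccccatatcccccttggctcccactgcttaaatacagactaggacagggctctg
Serpina1c: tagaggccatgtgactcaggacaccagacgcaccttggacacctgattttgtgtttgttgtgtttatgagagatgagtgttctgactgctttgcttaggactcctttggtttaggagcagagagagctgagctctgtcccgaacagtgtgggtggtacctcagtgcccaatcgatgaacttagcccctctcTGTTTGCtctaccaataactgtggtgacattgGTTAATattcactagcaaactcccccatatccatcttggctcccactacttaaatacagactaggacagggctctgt
The 2 windows were 91.4% identical over 302 aligned columns. On either strand GTTAAT occurred in 7.1% and TGTTTGC in 5.07% of all 32851 RefSeq promoters of this length. Among the 34 members with a listed promoter, GTTAAT was found for Serpina1b, Serpina1c, Serpina7, Serpinb8 and Serpini2, and TGTTTGC for Serpina1b, Serpina1c, Serpinb6b and Serpinb9. The other motifs searched were the GC box GGGCGG, in 35.7% of all promoters and found for 7 members, and the TATA box TATAAA, in 13.6% and found for 8. A match is a description of these windows only.

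At day 16 Serpina1b read 3.23, 3.73 and 3.02 in the KD-labelled arrays, 10.31, 11.1 and 11.77 in SCR and 9.38, 10.45 and 10.23 in WT (log2 signal, as for all values here). The ESC values were 3.51, 3.71 and 3.07 in KD-labelled cells, 3.17, 3.17 and 3.7 in SCR and 3.31, 3.3 and 3.23 in WT cells. The KD-labelled EBs thus stayed near the ESC level while all 6 control arrays lay far above it. The difference was -7.73 (SE 0.34, limma adjusted p 1.4e-20) against SCR and -6.69 (SE 0.34, adjusted p 1.2e-18) against WT. Already at day 8 Serpina1b read 2.99, 3.29 and 3.3 in the KD-labelled arrays and 5.93, 5.65 and 4.09 in SCR, a difference of -2.03.

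Serpina1c read 3.21, 3.06 and 3.18 in the day 16 KD-labelled arrays, 8.17, 9.04 and 10.13 in SCR and 6.61, 8.25 and 8.09 in WT. The difference was -5.96 (SE 0.34) against SCR and -4.5 (SE 0.34) against WT. Its smaller day 8 difference from SCR, -0.97 (adjusted p 0.015 in limma), lost its call without the second SCR array (-0.77) or the third KD-labelled array (-0.83). Serpina1 copies are close in sequence and their probe sets can share signal, so the 2 genes are not independent readings. The probe sets of Serpina1b, Serpina10, Serpinb3a, Serpinb6c, Serpinb6e, Serpinh1 and Serpini2 are of the kinds that can also bind related transcripts. A second probe set of Serpina1b gave -8 against SCR at day 16.

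Other plasma serpins were also lowest in the KD-labelled EBs at day 16. Serpina6, the corticosteroid-binding globulin that carries glucocorticoids and inhibits no protease, read 2.83, 2.8 and 3.11 in the day 16 KD-labelled arrays, 8.54, 10.07 and 10.48 in SCR and 7.83, 8.69 and 8.44 in WT. Serpinc1, antithrombin, the heparin-activated inhibitor of thrombin, read 3.69, 3.9 and 3.35 in KD-labelled EBs, 8.09, 8.91 and 9.54 in SCR and 7.51, 7.93 and 7.2 in WT arrays. For both genes the KD-labelled values did not overlap with either control. Serpina6 differed by -6.78 from SCR and -5.41 from WT (SE 0.34 each), and Serpinc1 by -5.2 and -3.9 (SE 0.23 each).

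Serpina10, which inhibits factor Xa with protein Z, read 4.71, 5.14 and 4.8 in the KD-labelled arrays of day 16, 7.86, 8.55 and 9.44 in SCR and 7.34, 8.25 and 7.72 in WT. Serpinf2, the plasmin inhibitor alpha-2-antiplasmin, read 6.18, 6.26 and 6.07 in KD-labelled EBs, 8.44, 9.34 and 10.16 in SCR and 8.14, 8.82 and 8.25 in WT arrays. Both were lowest in all 3 KD-labelled arrays. The differences were -3.73 (SE 0.26) and -3.14 (SE 0.23) against SCR, and -2.89 and -2.23 against WT. Serpind1, the thrombin inhibitor heparin cofactor II, was 4.49 ± 0.1 in KD-labelled EBs, 6.63 ± 0.59 in SCR and 6.11 ± 0.6 in WT EBs (SD, n = 3 each). Serpina3n, a mouse relative of alpha-1-antichymotrypsin, was 4.68 ± 0.12 in KD-labelled EBs, 6.45 ± 0.28 in SCR and 6.66 ± 0.34 in WT EBs (SD, n = 3 each).

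**Figure D3:**
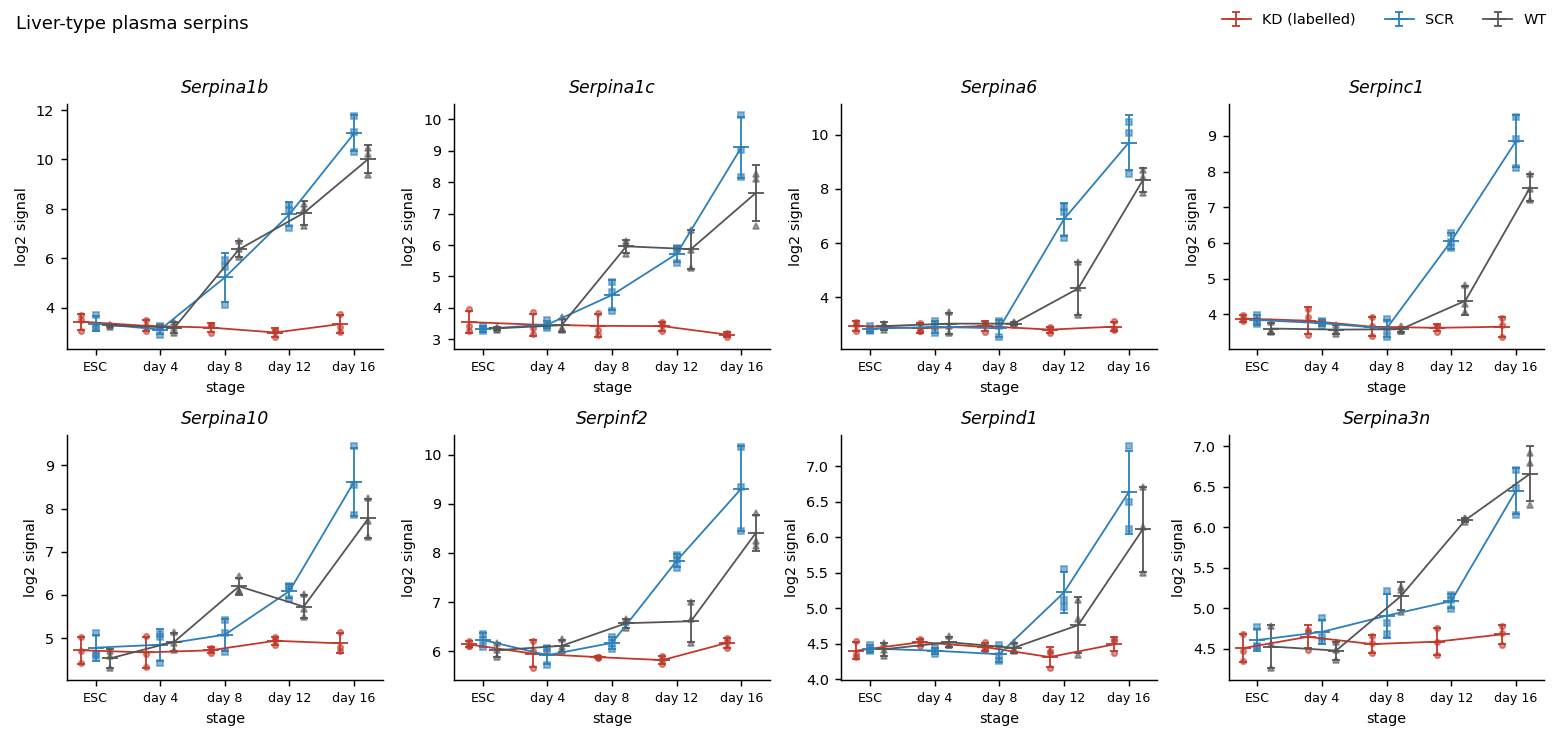
Log2 signal of 8 plasma serpins by stage in KD-labelled (red), SCR (blue) and WT (grey) cells: points are arrays, the line joins means and bars are SD (n = 3). The KD-labelled values stay near the ESC level through day 16, while SCR and WT lie above it at day 16, most genes climbing from day 8 or day 12.

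SCR and WT EBs did not climb in step. At day 12 Serpina6 averaged 6.88 ± 0.61 in SCR and 4.32 ± 0.97 in WT EBs (SD, n = 3 each). Serpinc1 averaged 6.05 ± 0.22 in SCR and 4.38 ± 0.4 in WT, and Serpinf2 7.84 ± 0.13 in SCR and 6.61 ± 0.42 in WT. The SCR minus WT differences were 2.57, 1.67 and 1.23. At day 8 the order was the reverse for Serpina1b, Serpina1c and Serpina10, at -1.14, -1.56 and -1.12. The KD-labelled differences at day 12 accordingly depend on the control: Serpina6 was at -4.08 against SCR and -1.51 against WT, and Serpinc1 at -2.43 and -0.76. Without the third WT array of day 12 the call against WT was lost for Serpinc1 (-0.54) and Serpina10 (-0.65).

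Counted over the 14 measured plasma and extracellular inhibitors, the KD-labelled EBs had 3 higher and 8 lower than SCR at day 16, while 39.8% of all genes were higher and 26.8% lower. The 3 higher ones were Serpina1f, Serpina5 and the pseudogene Serpina4-ps1, none with a group mean above the highest array median. The median difference of the 14 was -1.96, against 0.17 over all genes. Against WT 4 were higher and 8 lower (median -1.8), where 34.6% of all genes were higher and 26.1% lower. In the KD-labelled line 0 of the 14 rose from ESCs to day 16, and 2 fell. In SCR 8 rose and 4 fell and in WT 8 rose and 4 fell. Over all genes 19.1% rose and 19.1% fell in the KD-labelled line, 29.1% rose and 42.7% fell in SCR, and 28.1% rose and 38.1% fell in WT. Of all 40 members 10 changed from ESCs to day 16 in the KD-labelled line (all genes 38.1%), 27 in SCR (71.8%) and 32 in WT (66.2%). The first of these counts was 6 without the first KD-labelled ESC array.

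The day 16 change from ESCs itself differed between lines. It differed between KD-labelled and SCR cells for 22 of the 40 members, where 47.7% of all genes did, and between KD-labelled and WT cells for 28 (45.3%). Between SCR and WT 10 members differed (8.12%), and 6 without the third WT array of the ESCs. Over all 5 stages, the KD-labelled minus SCR difference changed with stage for 27 members by a moderated F test, as for 58.5% of all genes. For Serpina1b the gap in this change was -7.82 against SCR and -6.84 against WT.

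Hepatic and visceral endoderm markers were also lower in the KD-labelled EBs at day 16, but did not all stay near the ESC level. The mean of Alb, Afp, Ttr and Apoa1 was 6.82 to 7.81 in the day 16 KD-labelled arrays, 12.16 to 12.85 in SCR and 11.83 to 12.21 in WT. In the KD-labelled line this mean rose from 4.37 in ESCs to 7.2 at day 16. Albumin averaged 4.02 in the KD-labelled EBs of day 16 and 3.96 in their ESCs, while transthyretin (Ttr) reached 11.74. Of the 20 measured genes of hepatic and visceral endoderm plasma proteins and their regulators, 3 were higher and 16 lower than in SCR at day 16 (all genes 39.8% and 26.8%). The fibrinogen chain genes Fga, Fgb and Fgg were at -6.87, -6.39 and -6.97 against SCR. At day 8 the endocytic receptors Cubn and Amn were higher in the KD-labelled EBs than in SCR, by 5.8 and 3.35. At day 16 Cubn averaged 9.75 and Amn 7.86 in KD-labelled EBs, against 6.76 and 4.88 in WT EBs. The regulator Foxa2 averaged 8.84 in KD-labelled and 8.21 in WT EBs of day 16. The regulators Foxa1 and Hnf4a went the other way. Foxa1 averaged 6.42 in KD-labelled and 10.01 in WT EBs, and Hnf4a 7.56 and 8.55. In whole EBs fewer cells of a type and less RNA per cell cannot be told apart, and the part of cell makeup in the serpin differences was not tested.

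Serping1, Serpinf1 and Serpinh1, which are also made outside the liver, were lower in the KD-labelled EBs from day 8 or, for Serpinh1, day 4. Serping1, the complement C1 inhibitor, dropped from its ESC level by day 4 in all 3 lines and then rose in SCR and WT, but not in the KD-labelled line. At day 8 it read 5.16, 5.85 and 5.77 in KD-labelled EBs, 8.15, 7.9 and 7.45 in SCR and 8.02, 8.06 and 8.18 in WT arrays. Every KD-labelled array lay below every control array. The difference was -2.24 (SE 0.21, limma adjusted p 1.5e-11) against SCR and -2.49 (adjusted p 1.1e-12) against WT, and at day 16 it was -3.12 and -3.97.

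Serpinf1, the antiangiogenic and neurotrophic factor PEDF, read 4.62, 4.81 and 4.86 at day 8 in KD-labelled EBs, 8.32, 8.38 and 8.18 in SCR and 8.49, 9.05 and 9.05 in WT arrays. At day 16 it read 4.65, 5.19 and 5.26 in KD-labelled EBs, 8.82, 8.97 and 9.1 in SCR and 9.06, 9.09 and 8.88 in WT arrays. The groups stood apart at both days. The differences from SCR were -3.53, -3.39 and -3.93 at days 8, 12 and 16 (SE 0.23 each). A second Serpinf1 probe set gave smaller differences, -1.41, -1.78 and -1.76. At day 4 the means were 5.93 in KD-labelled EBs, 5.72 in SCR and 5.65 in WT EBs, and no difference between lines passed the test. In ESCs Serpinf1 was lower than in WT in both KD-labelled (-0.79) and SCR (-1.07) cells, and the first of these lost its call without the third WT array (-0.51).

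Serpinh1 encodes HSP47, the chaperone of the endoplasmic reticulum that procollagen needs to fold. At day 4 it read 8.01, 7.94 and 8.09 in KD-labelled EBs, 9.53, 9.65 and 9.58 in SCR and 9.99, 9.59 and 9.37 in WT arrays. At day 16 it read 9.91, 9.48 and 9.78 in KD-labelled EBs, 11.3, 11.17 and 11.23 in SCR and 11.39, 11.22 and 11.55 in WT arrays. No array overlapped at either day. The differences from SCR were -1.57, -2.08, -1.13 and -1.51 at days 4, 8, 12 and 16 (SE 0.19 each), and from WT -1.64, -2.36, -1.65 and -1.66. Unlike the plasma serpins, Serpinh1 did rise in the KD-labelled line, by 3.04 from ESCs to day 16, against 4.18 in SCR and 4.22 in WT. The gap in that change was -1.14 against SCR and -1.18 against WT. A second Serpinh1 probe set, nearly as bright, was already lower than WT in ESCs, at -0.96 (limma adjusted p 0.009). In ESCs it was at -0.46 against SCR and not called. It was at -1.65 and -1.69 against SCR and WT at day 4, and at -1.18 and -1.46 at day 16. The gap in the change was not tested on it.

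Of the 19 measured collagens and collagen folding enzymes, the KD-labelled EBs had 0 higher and 15 lower than SCR at day 8, 4 higher and 11 lower at day 12, and 1 higher and 12 lower at day 16. Over all genes 28% were higher and 24.7% lower at day 8, 31% higher and 24.6% lower at day 12, and 39.8% higher and 26.8% lower at day 16. The fibrillar collagen genes Col3a1 and Col1a2 were at -10.13 and -7.05 at day 8. The mean of the mesenchyme markers Col1a1, Col3a1, Dcn, Postn and Lum was 4.07 to 4.24 in the day 8 KD-labelled arrays, with 0 of the 5 above the array median, against 11.86 to 12.66 in SCR and 12.82 to 12.89 in WT. Their part in the Serpinh1, Serpinf1 and Serping1 differences was not tested.

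Serpini1 went the other way. It encodes neuroserpin, an inhibitor of tissue plasminogen activator known mainly from neurons. At day 4 it read 7.23, 7.33 and 7.22 in KD-labelled EBs, 4.83, 5.0 and 4.8 in SCR and 4.71, 4.5 and 4.62 in WT arrays, and all KD-labelled arrays lay above all controls. It fell from ESCs to day 4 by 1.92 in SCR and by 2.07 in WT, and rose by 0.75 in the KD-labelled line. The differences from SCR were 2.38, 1.69 and 1.6 at days 4, 8 and 12 (SE 0.21 each). At day 16 the KD-labelled values of 6.18, 6.46 and 6.07 overlapped the SCR values of 5.54, 6.34 and 6.0 and the difference of 0.28 was not called. WT read 5.24, 5.51 and 5.67, and KD-labelled was still 0.76 higher. A second Serpini1 probe set was not called at day 16, at -0.12 against SCR (limma adjusted p 0.66) and 0.45 against WT (adjusted p 0.11). The target protease gene Plat was lower in the KD-labelled EBs at day 8, at -2.26 against SCR and -2.58 against WT.

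**Figure D4:**
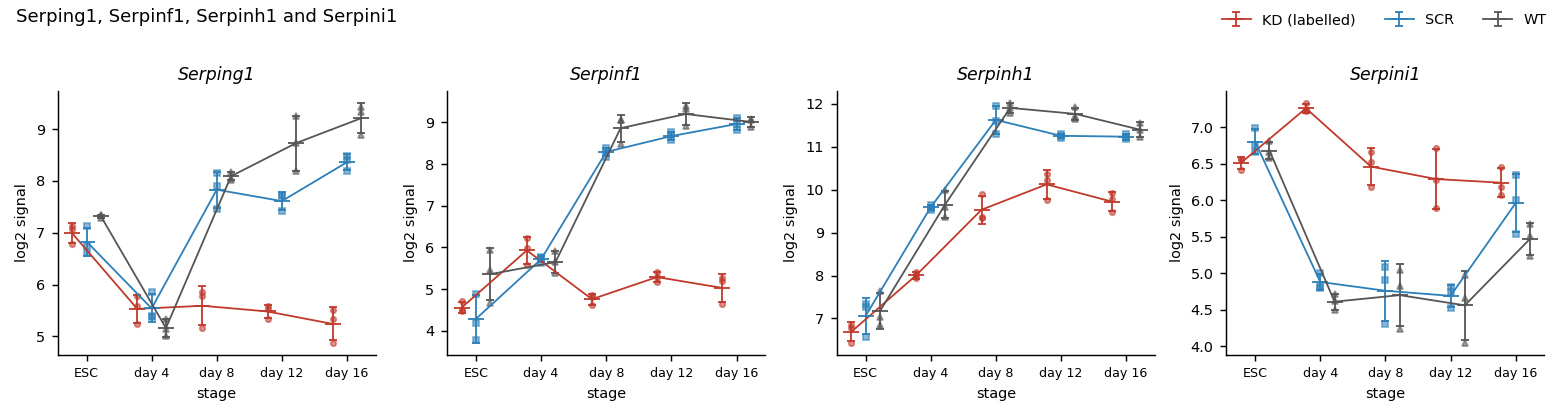
Log2 signal of Serping1, Serpinf1, Serpinh1 and Serpini1 by stage in KD-labelled (red), SCR (blue) and WT (grey) cells: points are arrays, the line joins means and bars are SD (n = 3). Serpinh1 rises in every line but stays lower in the KD-labelled one, and Serpini1 lies above both controls there at days 4, 8 and 12.

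The intracellular clade B serpins of chromosome 13 split into genes that were higher and genes that were lower in the KD-labelled EBs. Of the 11 members on that chromosome, 6 were higher and 1 lower than in SCR at day 8, 6 higher and 2 lower at day 12, and 5 higher and 4 lower at day 16. Over all genes 28% were higher and 24.7% lower at day 8, and 31% higher and 24.6% lower at day 12. At day 16 the shares of all genes were 39.8% higher and 26.8% lower, and the split of the 11 was near them. Against WT the KD-labelled EBs had 6 of the 11 higher and 4 lower at day 8 (all genes 26% and 23.9%). They had 4 higher and 5 lower at day 12 (27.1% and 23.6%), and 1 higher and 8 lower at day 16 (34.6% and 26.1%). None of the 13 members on chromosome 12 was higher than in SCR at day 8, and 2 were lower. Against SCR that contrast was still there at day 12, with 2 higher and 5 lower on chromosome 12. It was gone at day 16, with 5 higher and 5 lower there.

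Serpinb6c fell after the ESC stage in SCR and WT and was regained in the KD-labelled EBs. The ESC arrays read 6.7, 6.62 and 7.03 in KD-labelled cells, 6.18, 6.87 and 8.11 in SCR and 8.05, 8.01 and 9.0 in WT cells. At day 12 it read 8.57, 8.09 and 8.8 in KD-labelled EBs, 3.5, 3.63 and 3.7 in SCR and 3.79, 3.76 and 3.55 in WT arrays. The KD-labelled line therefore exceeded its own ESC level at day 12, by 1.7, while both controls lay below theirs by more than 3 log2 units. The differences from SCR were 3.75, 4.88 and 3.9 at days 8, 12 and 16 (SE 0.28 each), and from WT 3.73, 4.79 and 3.57. At day 4 the KD-labelled mean had dropped to 4.55 ± 0.23, against 3.84 ± 0.11 in SCR and 3.69 ± 0.17 in WT (SD, n = 3 each). That day 4 difference of 0.71 lost its call without array 2 or array 3 of either line (0.6 to 0.71). In ESCs Serpinb6c was lower than in WT in both KD-labelled (-1.57) and SCR (-1.3) cells.

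Serpinb9g, Serpinb9d and Serpinb9c, neighbouring copies of the Serpinb9 group, came up in the KD-labelled EBs at day 8 and in WT EBs later, but not in SCR EBs. Their promoters are shown because the 3 copies moved together. The windows are RefSeq GRCm38.p6, at chr13:33484540-33484839 (plus strand) for Serpinb9g, chr13:33192705-33193004 (plus strand) for Serpinb9d and chr13:33159705-33160004 (minus strand, the first of 2 listed) for Serpinb9c, written 5′ to 3′. Capitals mark the longest run of letters shared by all 3.
Serpinb9g: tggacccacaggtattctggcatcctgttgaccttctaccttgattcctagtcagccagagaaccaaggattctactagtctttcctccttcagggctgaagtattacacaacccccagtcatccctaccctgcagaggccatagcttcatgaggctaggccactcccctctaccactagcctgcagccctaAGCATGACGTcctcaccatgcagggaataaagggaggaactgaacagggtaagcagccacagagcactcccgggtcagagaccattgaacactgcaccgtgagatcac
Serpinb9d: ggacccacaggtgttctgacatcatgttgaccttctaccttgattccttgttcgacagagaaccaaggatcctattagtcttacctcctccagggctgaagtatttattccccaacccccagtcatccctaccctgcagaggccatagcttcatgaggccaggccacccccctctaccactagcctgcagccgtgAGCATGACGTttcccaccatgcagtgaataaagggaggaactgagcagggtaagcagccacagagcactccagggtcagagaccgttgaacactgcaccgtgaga
Serpinb9c: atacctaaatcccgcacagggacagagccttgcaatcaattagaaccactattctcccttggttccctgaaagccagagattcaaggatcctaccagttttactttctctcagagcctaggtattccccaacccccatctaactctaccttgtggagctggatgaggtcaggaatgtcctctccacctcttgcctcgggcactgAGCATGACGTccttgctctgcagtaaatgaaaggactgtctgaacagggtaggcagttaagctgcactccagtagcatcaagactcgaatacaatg
The Serpinb9g window was 89.5% identical to that of Serpinb9d and 63.0% to that of Serpinb9c. The 10 shared letters AGCATGACGT, on either strand, occurred in 13 of the 32851 promoters (0.0396%). This run was found by comparing these windows, so its rarity is a description and no test.

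At day 8 Serpinb9g read 6.57, 5.91 and 8.24 in KD-labelled EBs, 2.7, 2.94 and 2.73 in SCR and 3.11, 2.9 and 2.99 in WT arrays. At day 16 it read 6.7, 5.91 and 6.22 in KD-labelled EBs, 2.62, 2.47 and 2.58 in SCR and 9.25, 9.28 and 8.3 in WT arrays. The KD-labelled arrays were thus highest at day 8 and in the middle at day 16, with no overlap. The differences from SCR were 4.12, 4.99 and 3.72 at days 8, 12 and 16, and from WT 3.91, 2.76 and -2.67 (SE 0.39 each). SCR and WT differed by -6.39 at day 16 (limma adjusted p 7.2e-15), so the direction of the day 16 comparison depends on which control is used.

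The same turn was seen in Serpinb9c, at 2.4 against SCR and 2.33 against WT at day 8, and at 1.25 and -2.64 at day 16. A dimmer second probe set of Serpinb9c was at 0.66 and 0.6 at day 8, but at day 16 it was not called, at 0.29 against SCR (limma adjusted p 0.095) and -0.34 against WT (adjusted p 0.059). Serpinb9d was at 1.9 and 1.74 at day 8, and at 1.14 and -1.71 at day 16. The third KD-labelled array of day 8 was the highest for all 3 genes, at 8.24, 6.14 and 6.12 for Serpinb9g, Serpinb9c and Serpinb9d. Cross-hybridisation among these copies cannot be told apart from expression of each.

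Serpinb9b, at higher signal, read 8.16, 8.4 and 7.77 in KD-labelled cells, 7.42, 7.1 and 6.82 in SCR and 6.87, 7.54 and 6.97 in WT ESCs. It was 1.0 higher than SCR and 0.98 higher than WT in ESCs, 2.17 and 1.14 higher at day 8, and 0.82 higher than SCR at day 16, where the difference from WT was -1.21. The ESC difference from WT was not called without the second KD-labelled array (0.84).

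**Figure D5:**
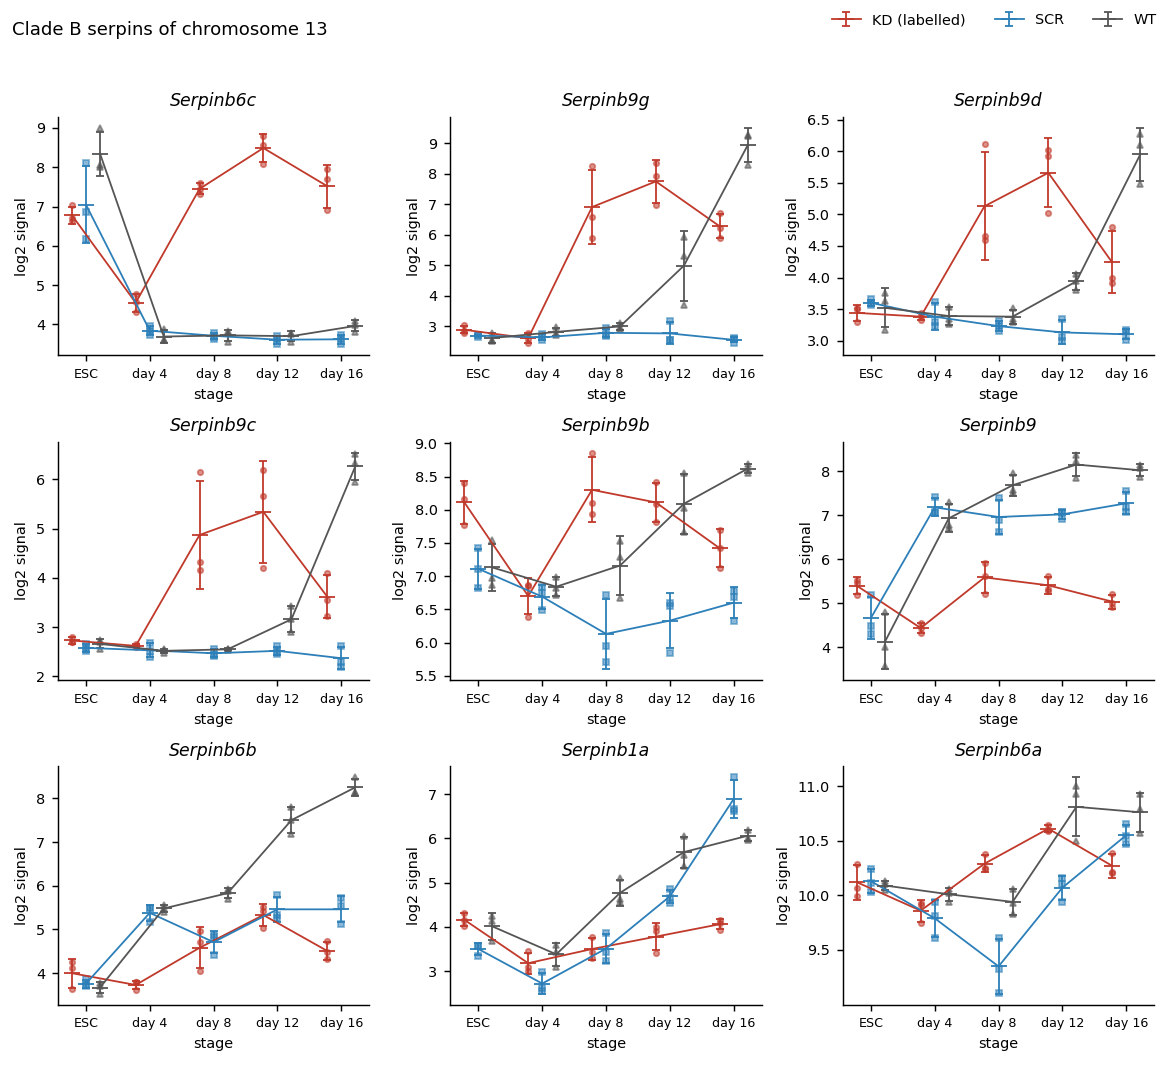
Log2 signal of 9 clade B serpins of chromosome 13 by stage in KD-labelled (red), SCR (blue) and WT (grey) cells: points are arrays, the line joins means and bars are SD (n = 3). At day 8 Serpinb6c and the Serpinb9g, 9d, 9c and 9b genes are higher in KD-labelled EBs than in SCR and WT EBs. At day 4 Serpinb9 and Serpinb6b are lower in KD-labelled EBs.

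Serpinb9, whose product inhibits granzyme B, behaved differently from its copies. At day 4 it read 4.56, 4.44 and 4.32 in KD-labelled EBs, 7.41, 7.06 and 7.07 in SCR and 7.29, 6.77 and 6.72 in WT arrays. The KD-labelled arrays lay wholly below, after having lain above WT in ESCs by 1.27 and above SCR by 0.73. The second Serpinb9 probe set did not show that ESC difference, at -0.08 against SCR (limma adjusted p 0.85) and -0.04 against WT (adjusted p 0.94). The differences from SCR were -2.74, -1.37, -1.61 and -2.23 at days 4, 8, 12 and 16 (SE 0.23 each), and from WT -2.49, -2.09, -2.74 and -2.98. The second probe set gave -1.63, -1.52, -1.46 and -1.7 against SCR at the same days.

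Serpinb6b, an inhibitor of granzyme A in mouse, rose by day 4 by 1.62 in SCR and 1.81 in WT and did not change by the test in the KD-labelled line. Its day 4 arrays read 3.62, 3.79 and 3.79 in KD-labelled EBs, 5.17, 5.5 and 5.48 in SCR and 5.55, 5.5 and 5.4 in WT EBs. The KD-labelled arrays were the lowest at that day (-1.65 against SCR, SE 0.19). At days 8 and 12 it was not called against SCR, and WT went on to a mean of 8.25 at day 16, against 4.51 in KD-labelled and 5.46 in SCR EBs.

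Serpinb1a, which inhibits neutrophil elastase and cathepsin G, read 4.08, 3.94 and 4.16 at day 16 in KD-labelled EBs, 6.67, 6.61 and 7.38 in SCR and 6.0, 5.97 and 6.2 in WT arrays. It rose from ESCs to day 16 in SCR (3.39) and WT (2.04) and not in the KD-labelled line, and differed by -2.83 from SCR and -2.0 from WT (SE 0.2 each). A second, dimmer Serpinb1a probe set gave -0.99 and -0.43. Serpinb11, on chromosome 1, read 3.13, 2.96 and 2.69 at day 16 in KD-labelled EBs, 6.49, 6.4 and 6.01 in SCR and 4.92, 7.24 and 6.28 in WT arrays. It was near its ESC level in all lines before that day, and differed by -3.37 from SCR and -3.22 from WT at day 16 (SE 0.28 each).

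Myeloid markers (Ptprc, Cd68, Csf1r, Spi1 and Lyz2) averaged 5.3 to 5.42 in the day 16 KD-labelled arrays, 7.96 to 8.06 in SCR and 8.7 to 8.91 in WT. Of these 5, 3 were called lower than in SCR and 4 lower than in WT, and 0 higher than in either. Keratinocyte markers (Krt5, Krt14, Trp63 and Krtdap) averaged 3.78 to 3.93, with 0 of 4 above the array median, against 5.24 to 6.03 in SCR and 6.83 to 7.95 in WT. The 4 measured trophoblast markers, Tpbpa, Cdx2, Elf5 and Ascl2, averaged 4.85 to 4.94 in KD-labelled EBs, 5 to 5.48 in SCR and 6.76 to 7.43 in WT arrays of day 16. They did not move together: 2 were higher and 2 lower than in SCR, and 1 was higher and 3 lower than in WT. Ascl2 averaged 7.15 in KD-labelled EBs, 4.9 in SCR and 6.08 in WT EBs. The part of these markers in the clade B differences was not tested. The epithelial tumour suppressor maspin, Serpinb5, reached its highest mean of 4.45 in the WT EBs of day 16, with a KD-labelled minus WT difference of -1.07.

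The brightest clade B member, Serpinb6a, related to the human cathepsin G inhibitor SERPINB6, differed by less than 1 log2 unit between lines at every stage. At day 8 it read 10.24, 10.25 and 10.38 in KD-labelled EBs, 9.61, 9.33 and 9.11 in SCR and 10.06, 9.83 and 9.93 in WT arrays. The KD-labelled arrays were the highest, by 0.94 over SCR and 0.35 over WT (SE 0.12 each). At day 16 the differences were -0.29 and -0.5, and the first of these was not called after centring each array on its median (-0.2).

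Serpina7, the thyroxine-binding globulin, read 2.54, 2.48 and 2.52 at day 16 in KD-labelled EBs, 3.08, 2.85 and 4.12 in SCR and 2.62, 2.7 and 2.61 in WT arrays, and the third SCR array stood apart. Serpina9 had group means from 2.98 to 3.5 and Serpina12 (vaspin) from 4.9 to 5.33. Serpina11 was called in 1 comparison of lines, 0.46 higher in KD-labelled than in WT EBs at day 12, and lost the call without the second KD-labelled array (0.22) or the first or second WT array (0.38 and 0.4) of that day. Serpina3a and Serpina3i were 0.45 and 0.34 higher than SCR at day 16, against the shift of 0.17 over all genes, and Serpina3i was not called after cyclic loess (0.2).

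As a count without a p, all 3 KD-labelled arrays lay below all 6 control arrays for 2 members in ESCs and above them for 1, where 8.32% and 9.64% of all genes did so. At day 4 the counts were 3 below and 3 above (all genes 19.6% and 20%) and at day 8 9 below and 10 above (22.6% and 25.7%). At day 12 they were 12 below and 7 above (21.8% and 26.6%), and at day 16 19 below and 6 above (24% and 34%).

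Among the proteases and receptors that serpins act with, calls fell in both directions. Of 29 measured target protease genes, the KD-labelled EBs had 9 higher and 14 lower than SCR at day 16, and 4 higher and 12 lower than WT. Over all genes 39.8% were higher and 26.8% lower than SCR, and 34.6% higher and 26.1% lower than WT. Plg (plasminogen), F10 and F2 (prothrombin) were at -4.68, -2.54 and -2.5, and at -3.71, -1.47 and -0.93 against WT. Of 12 receptors and cofactors, 7 were higher and 4 lower than in SCR at day 16, and 5 higher and 3 lower than in WT, beside the same shares of all genes. The serpin cofactor vitronectin (Vtn) was at -5.69 and the clearance receptor gene Lrp1 at -2.2, while the related Lrp2, an endocytic receptor of visceral endoderm, was at 3.81.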

How the data were processed

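Total RNA was hybridised to Affymetrix Mouse 430 2.0 arrays. The deposited series matrix holds log2 values; the submitters' processing notes name Affymetrix Expression Console, Partek 6.6 and RMA, without saying which step used which. No genome build or array annotation is given in the sources used here. Probe sets were named from the platform annotation, which gave 1 symbol for 34945, several for 932 and none for 9160. For each gene the probe set with the highest mean was kept, giving 18193 genes, with no filter on dim genes.

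Group means of 15 line-by-stage groups were fitted with limma 3.58.1 in R 4.3.3 (30 residual and 5.17 prior degrees of freedom), with Benjamini-Hochberg adjustment over all genes. The number of arrays limits the precision. The source names gave the replicate numbers, because SCR titles count differently. Same-numbered arrays deviated together (all 3 correlations over 0.1) in 3 of 27 comparisons, SCR against WT in ESCs and at days 8 and 12, and otherwise share only a number. In those 3, a block on the number added Serpinb9 at day 8 and otherwise changed no call. Values of every array are given for the 4 members of each role group with the largest called difference between KD-labelled and SCR cells and the 2 brightest, except that members without a role group are given by their differences or means. Other genes were added as examples after their values were seen. Members, gene lists and motifs were chosen with earlier results of these data known. Alternatives were 2 scalings, a filter on dim genes, means over probe sets, a replicate block, fits of the compared groups alone and leaving out each array. In each line, array 1 of day 8 is tagged as ESCs in its cell type. It was kept at day 8, where its title puts it, and its correlations with the other day 8 arrays were at least 0.9889.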

Additional observations from a re-analysis of the deposited data

Results flagged for a closer look

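The change from ESCs to day 16 differed between lines by a test of the difference itself in limma. It differed for 22 members between KD-labelled and SCR cells (all genes 47.7%), for 28 between KD-labelled and WT cells (45.3%) and for 10 between SCR and WT cells (8.12%). The last count was 6 without the third WT array of the ESCs. The KD-labelled minus SCR difference changed with stage for 27 members (moderated F test), where 58.5% of all genes did so.

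Against SCR, the change in the KD-labelled line was lower for Serpina1b (-7.82), Serpina6 (-6.89), Serpina1c (-6.18), Serpinc1 (-5.24), Serpinf1 (-4.21), Serpinb11 (-3.69), Serpina10 (-3.68), Serpinb1a (-3.49), Serping1 (-3.29), Serpinf2 (-3.05), Serpinb9 (-2.96), Serpind1 (-2.11), Serpina3n (-1.67), Serpinb6b (-1.19) and Serpinh1 (-1.14). It was also lower for Serpinb2 (-0.77) and Serpinb7 (-0.55). It was higher for Serpinb6c (4.17), Serpinb9g (3.52), Serpinb9d (1.3), Serpinb9c (1.1) and Serpinb12 (0.43). Serpinb12 stayed below the array medians, with group means from 4.09 to 4.46. Its other probe set went the other way, from 0.24 in ESCs to -0.27 at day 16 against SCR, neither called. Against WT at day 16 that probe set was at -1.1 (limma adjusted p 5.9e-08).

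Against WT, it was lower for Serpina1b (-6.84), Serpina6 (-5.41), Serpina1c (-4.7), Serpinb9 (-4.25), Serpinc1 (-4.18), Serpinb6b (-4.07), Serping1 (-3.64), Serpinb11 (-3.21), Serpinf1 (-3.18), Serpina10 (-3.07), Serpinb9g (-2.94), Serpinb9c (-2.71), Serpinf2 (-2.35), Serpinb9b (-2.19), Serpinb1a (-2.15), Serpina3n (-1.96), Serpinb9d (-1.63), Serpind1 (-1.6), Serpinb5 (-1.21), Serpinh1 (-1.18) and Serpinb6a (-0.52). Serpinb1b, Serpinb2, Serpinb3a, Serpinb7 and Serpinb8 were also lower, by less than 1 log2 unit. It was higher for Serpinb6c (5.14) and Serpini1 (0.93). The second Serpinb9c probe set was at -0.15 against WT in ESCs and -0.34 at day 16, neither called. Against SCR that probe set was at -0.16 and 0.29, also not called. The second Serpinb9 probe set was at -0.04 against WT in ESCs and -2.17 at day 16. The gap in the change was not tested on these probe sets.

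Between SCR and WT, the change was lower in SCR for Serpinb9g (-6.46), Serpinb9c (-3.81), Serpinb9d (-2.93), Serpinb6b (-2.88), Serpinb9b (-2.01) and Serpinb9 (-1.29), and higher for Serpinb1a (1.35), Serpinc1 (1.06), Serpina7 (1.03) and Serpinf1 (1.02).

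A probe set outside the main measurement, because it is listed for 4 genes (Serpinb9e, Serpinb9f, Serpinb9g and Serpinb9h), lay above all control arrays in the KD-labelled arrays of days 8 and 12. At day 8 the KD-labelled mean was 7.66, against 3.25 in SCR and 3.69 in WT EBs. At day 12 the KD-labelled mean was 8.29, against 3.22 in SCR and 6.19 in WT EBs. At day 16 the KD-labelled mean of 6.74 (6.46 to 7.26) stood above SCR (3.06) and below WT (9.51, 9.14 to 9.7).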

How the results depend on the processing

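Fitting the compared groups alone changed 5 counts of called members by over 1.5 times: KD-labelled against WT in ESCs had 3 (5 in the joint fit), SCR against WT 0 in ESCs (2), 4 at day 8 (7) and 7 at day 16 (17), and the SCR minus WT change from ESCs to day 16 had 6 (10). Leaving out 1 array at a time gave 1 to 3 members for KD-labelled against SCR in ESCs, 1 to 3 for SCR against WT in ESCs, 8 to 18 for SCR against WT at day 16 and 6 to 13 for the SCR minus WT change from ESCs to day 16. For KD-labelled day 16 against ESCs the range was 6 to 9, where the joint fit gave 10 and the lowest came without the first KD-labelled ESC array. For day 16 it was 25 to 29 against SCR and 27 to 30 against WT. With centring, cyclic loess, the filter on dim genes, means over probe sets or the replicate block, each count of called members, both directions together, stayed within 1.5 times, while cyclic loess gave 3 higher members against WT at day 16, where the joint fit gave 6. With the replicate block the day 16 counts were 29 against SCR and 31 against WT. No named member reversed under any alternative run. Named calls lost when arrays were left out were Serpinb1a in ESCs against SCR (0.59), Serpinb6a against WT at day 8 (0.3) and against SCR at day 16 (-0.29 to -0.24), Serpina3i (0.28 to 0.3) and Serpinb6c against WT at day 4 (0.75), besides those given with the results. Fitting the compared groups alone left the differences of Serpinf1 against WT in ESCs (-0.79) and Serpina11 against WT at day 12 (0.46) without a call. Leaving out the first array of day 8 in all lines, chosen after seeing the data, gave 14 members against SCR and 19 against WT, and the calls of Serpina1c against SCR (-0.86) and Serpinf2 against WT (-0.65) were lost. Fewer arrays leave less power, and beyond that the cause was not tested. The 16 members that never passed the array median are read least firmly.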

Other observations

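Probe sets shared by Serpina1 copies were also lowest in KD-labelled EBs at day 16. A probe set listed for both Serpina1a and Serpina1d averaged 2.2 ± 0.09 in KD-labelled EBs, 9.75 ± 0.78 in SCR and 8.5 ± 0.8 in WT EBs of day 16 (SD, n = 3 each). At day 12 it averaged 2.19 ± 0.1 in KD-labelled EBs, 7.43 ± 0.21 in SCR and 5.96 ± 0.61 in WT EBs. A probe set listed for Serpina1b, Serpina1c and Serpina1e averaged 3.36 ± 0.13 in KD-labelled EBs, 5.04 ± 0.8 in SCR and 4.17 ± 0.35 in WT EBs of day 16. In the KD-labelled arrays the range of the first probe set over the 5 stages was 2.1 to 2.48.

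Serpinb2, plasminogen activator inhibitor 2, differed by -1.02 between KD-labelled and SCR EBs at day 8 and by -0.73 between KD-labelled and WT EBs. Serpina5, the protein C inhibitor, had a brief rise from ESCs to day 4 of 0.59 in SCR and 0.51 in WT, and the KD-labelled minus SCR difference at that day was -0.4. Both genes stayed below the array medians in every group.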
